A study of Mus musculus with 15 samples.

Results

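The 9 genes described here are the interleukin-1 axis and a small set of inflammatory cytokines: the ligands Il1b, Il1a and Il18, the antagonist Il1rn, the inflammasome genes Nlrp3 and Casp1, and the cytokines Tnf, Il6 and Il10. They were chosen by name, with earlier results of these data known, as 9 of the 53546 gene symbols in the count table. All 9 passed the filter on low counts that left 14683 genes for testing. Levels were measured by bulk RNA-seq of macrophages sorted for CD206 from the dura mater, the outer membrane around the brain. The mice were C57BL/6J with the genotype Cx3cr1GFP/wt, which carries GFP at 1 allele of the fractalkine receptor gene, and they received no treatment. The libraries form 5 age groups of 3, namely the embryonic stage E14.5 and, after birth, days 3 (P3), 10 (P10), 21 (P21) and 56 (P56), or 15 libraries in total. Every group carries the GFP allele, so no library stands for a mouse with both Cx3cr1 alleles. The question was how the RNA of these cells differs between ages.

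Interleukin-1 beta and interleukin-18 are made as inactive precursors. In the usual scheme their genes are first induced, largely by NF-kB signalling, and an assembled inflammasome, with NLRP3 as one of its sensors, then activates caspase-1, which cuts both precursors. Interleukin-1 alpha acts through the same receptor as interleukin-1 beta without needing that cut, and the product of Il1rn blocks that receptor. TNF and interleukin-6 are further inflammatory cytokines of macrophages, and interleukin-10 restrains the output of inflammatory cytokines. RNA levels say nothing of cutting, release or receptor binding, and in bulk samples fewer cells of a type and less RNA per cell cannot be told apart.

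Promoter sequences are shown for Il1b, Il1a, Tnf and Il6, so that their start regions can be read beside values that moved in different directions. They are from RefSeq, build GRCm38.p6, and run 5′ to 3′ on the strand of the gene from 250 bases before to 50 bases after its start. Of the 9 genes, 8 matched that table, with 11 promoters, and Il10 had no entry. Capitals mark matches to TATAAA, to TGANTCA (the AP-1 motif) or to the NF-kB consensus, searched on both strands. The regions are chr2:129371090-129371389 on the minus strand for Il1b, chr2:129309923-129310222 on the minus strand for Il1a, chr17:35201958-35202257 on the minus strand for Tnf and chr5:30012864-30013163 on the plus strand for Il6.
Il1b: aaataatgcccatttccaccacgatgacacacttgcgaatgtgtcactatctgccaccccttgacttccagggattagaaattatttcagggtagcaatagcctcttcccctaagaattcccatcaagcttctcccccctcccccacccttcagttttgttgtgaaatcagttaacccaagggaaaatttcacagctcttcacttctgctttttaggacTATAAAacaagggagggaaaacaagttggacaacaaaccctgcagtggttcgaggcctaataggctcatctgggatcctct
Il1a: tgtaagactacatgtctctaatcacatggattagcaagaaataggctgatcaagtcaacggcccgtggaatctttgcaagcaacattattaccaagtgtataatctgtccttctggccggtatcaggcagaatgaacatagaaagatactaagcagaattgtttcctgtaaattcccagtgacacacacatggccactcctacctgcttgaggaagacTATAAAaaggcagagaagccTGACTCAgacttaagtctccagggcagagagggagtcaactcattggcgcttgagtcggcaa
Tnf: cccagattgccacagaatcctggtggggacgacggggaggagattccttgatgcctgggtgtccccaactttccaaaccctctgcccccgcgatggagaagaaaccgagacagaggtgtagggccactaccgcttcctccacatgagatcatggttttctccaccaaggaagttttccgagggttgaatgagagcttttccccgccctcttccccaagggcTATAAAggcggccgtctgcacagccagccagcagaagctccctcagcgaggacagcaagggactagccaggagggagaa
Il6: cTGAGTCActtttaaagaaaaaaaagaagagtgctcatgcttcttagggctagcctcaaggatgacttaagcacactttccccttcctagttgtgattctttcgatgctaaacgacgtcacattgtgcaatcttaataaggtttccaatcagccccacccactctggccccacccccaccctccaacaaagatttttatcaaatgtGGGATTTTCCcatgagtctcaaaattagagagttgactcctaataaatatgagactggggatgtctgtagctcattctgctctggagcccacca

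Il1b, Il1a and Tnf each held TATAAA shortly before the start, with its first base 31, 32 and 29 bases upstream. That motif was present in 13.6% of the 32851 promoters in the table. This share and those below count a match anywhere in the window on either strand, so they are not shares for the positions named. TGANTCA was present 12 bases before the start of Il1a and 249 bases before that of Il6, and in 7.81% of all promoters. A match to the NF-kB consensus lay 44 bases before the start of Il6, and 8.46% of all promoters held one. Among the promoters not printed, Nlrp3 held an NF-kB match 186 bases before 1 of its starts and Il1rn held TGANTCA 141 bases before 1 start. TATAAA was also present on the opposite strand, 14 bases after another start of Il1rn and 175 bases before that of Il18. These matches are descriptions of letters in a window and are not measured binding.

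Total counts ranged from 17550170 to 30614583 per library. Pearson r of log2 CPM between libraries of an age was lowest at P21 (0.843 to 0.896) and highest at E14.5 (0.93 to 0.948). Mrc1, which encodes the sorted protein CD206, had a mean CPM, scaled by TMM, of 2573 ± 128 in the E14.5 libraries and of 2773 ± 646 in those of P21 and was called in no comparison. All 16 border macrophage markers passed the filter, and their summed share of the total count went from 27950 to 32293 CPM (E14.5) up to 56376 to 65053 CPM (P56). The markers did not all move alike: for P21 against E14.5, 10 of 16 were called higher, among them Lyz2 (1725 ± 87.5 to 12251 ± 1376 CPM) and C1qb (3494 ± 198 to 10516 ± 839), and 1 lower, F13a1 (5670 ± 816 to 3590 ± 535). Of all tested genes, 7.81% were called higher and 4.37% lower. Csf1r, Mertk, Mrc1, Lyve1 and Stab1 were not called. Among them Lyve1 (1367 to 737 CPM) and Stab1 (1045 to 775) had lower means at P21. The P56 libraries are the only ones of their sequencing project, so at P56 age and project cannot be told apart. The spread behind every p-value is that between replicate libraries of an age; the design text mentions 3-5 individual mice for each age but does not tie libraries to mice.

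From E14.5 to P21 the 9 genes did not move as one. Il1b, Il1a and Il10 rose and Tnf fell, each in all 16 alternatives tried. Casp1 also rose, but its call was lost in 8 of 16 alternatives and it was not called in the test of any difference up to P21 (adjusted p = 0.117). Il1rn, Nlrp3, Il18 and Il6 did not pass the test, although Nlrp3 and Il18 passed between other ages. Levels are given below as CPM scaled by TMM (a factor that corrects for differences in composition between libraries), as mean ± SD over n = 3 libraries. Changes are log2 differences of the older minus the younger age from edgeR's quasi-likelihood fit of all 15 libraries. Their SE was derived from that fit, as the absolute log2 change divided by the square root of its F statistic. A gene was called at an adjusted p under 0.05 (Benjamini-Hochberg over all tested genes). The comparisons share libraries (E14.5 enters 3 of them), so their values are not independent and are set side by side. Because the 9 genes were chosen with earlier results of these data known, their shares beside those of all genes are descriptions.

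Between E14.5 and P3, 4 of the 9 genes were called, 3 higher and 1 lower, where 2.06% of all tested genes were called (1.67% higher and 0.388% lower). For 4 of the 9 no library of one age overlapped the other age, beside 26.4% of all genes. Between P3 and P10 it was 1 gene, higher, against 0.402% of all genes (0.341% higher and 0.0613% lower), and 5 of the 9 did not overlap, beside 19.2%. Between P10 and P21, 2 were called, both higher, against 1.14% (0.96% higher and 0.184% lower), with no overlap for 6 of the 9, beside 17.7%. Between P21 and P56, 0 of 9 were called by edgeR, against 0.272% (0.102% higher and 0.17% lower), with no overlap for 3 of the 9, beside 13%. At that last step 2 of the 9, Il1b and Il1a, had an unadjusted p under 0.05 in edgeR's test, and the share of all genes with such a value is not given here. DESeq2 called 1 of them, Il1b, among 524 genes it called in all, where edgeR called 40. From limma voom there were 0 calls among the 9.

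Over the longer intervals, 5 genes were called for P21 against E14.5, 4 higher and 1 lower, against 12.2% of all genes (7.81% higher and 4.37% lower), and 7 of the 9 did not overlap, beside 33.4%. For P10 against E14.5, 4 were called, 3 higher and 1 lower, against 8.96% (5.81% higher and 3.15% lower), and 5 of the 9 did not overlap, beside 35.4%. A test of any difference over the ages up to P21 (12 libraries) called 7 of 9, against 12.3% of 14287 genes, and the 2 not called were Il1rn and Casp1. The median log2 change of the 9 genes for P21 against E14.5 was 1.16, beside -0.009 over all tested genes.

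**Figure D1:**
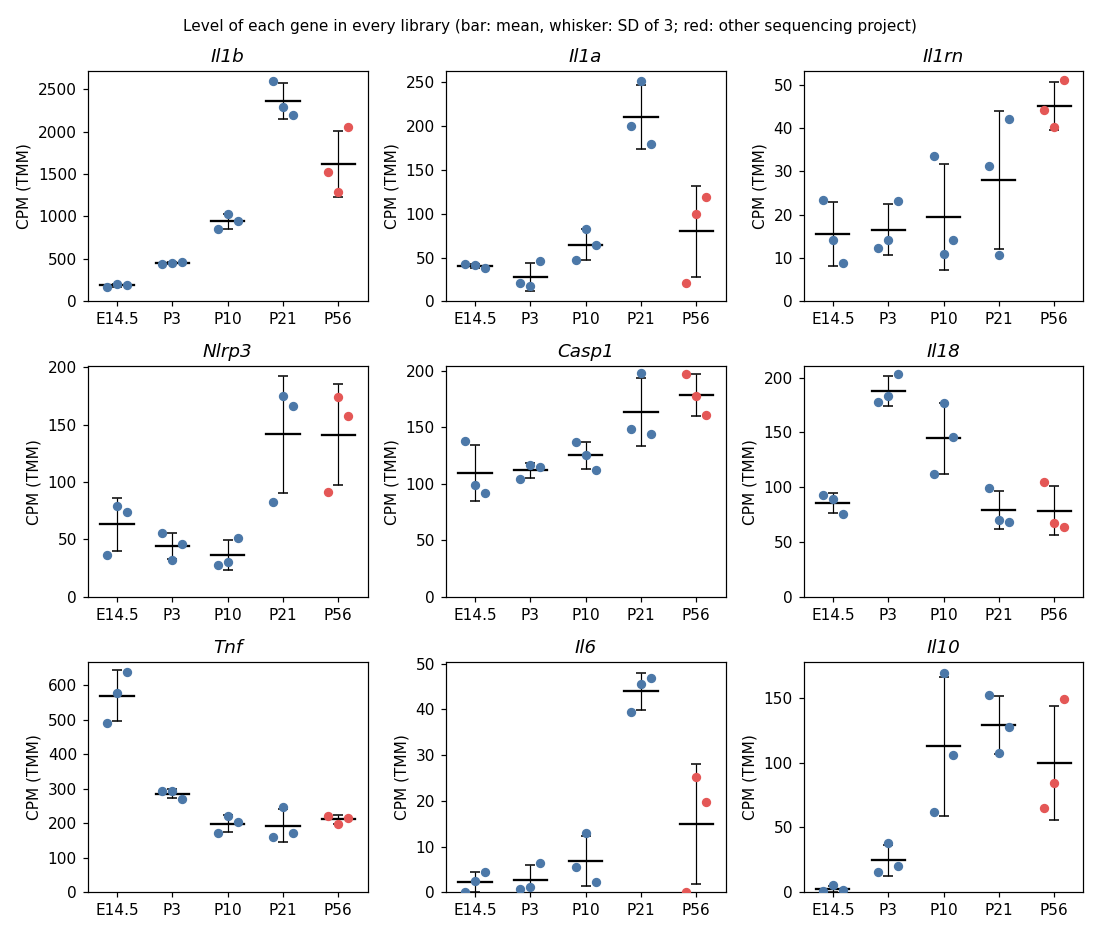
Level of each of the 9 genes in every library, in CPM scaled by TMM (vertical axis, linear, own scale per gene), by age (horizontal axis); points are libraries, bars are means and whiskers are SD over 3 libraries, with P56 in red as the only age of its sequencing project. Il1b climbs from 188 at E14.5 to 2362 at P21 while Tnf goes from 569 to 193.

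Il1b, the gene of interleukin-1 beta, rose at each step up to P21. Its 3 libraries stood at 171, 199 and 195 CPM at E14.5, at 443, 448 and 468 at P3, at 857, 1034 and 941 at P10, and at 2596, 2296 and 2194 at P21. No library of an older age in this series of 4 ages overlapped one of a younger age. The means were 188 ± 14.8, 453 ± 13.3, 944 ± 88.5 and 2362 ± 209 CPM.

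Each step of Il1b passed the test. The log2 change was 1.27 ± 0.149 from E14.5 to P3 (adjusted p = 0.000442), 1.06 ± 0.148 from P3 to P10 (adjusted p = 0.0055) and 1.32 ± 0.149 from P10 to P21 (adjusted p = 0.000795). Differences between these steps were not tested. Over the whole interval Il1b rose 12.5-fold (log2 change 3.65 ± 0.162, adjusted p = 8.48e-09). Each of these calls, and that of P10 against E14.5 (2.33 ± 0.154, adjusted p = 1.11e-06), held in all 16 alternatives, leaving out single libraries included.

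At P56 the 3 Il1b libraries held 1527, 1285 and 2051 CPM, all below those of P21. The difference of -0.54 ± 0.147 was not called (adjusted p = 0.149). It was called without P56 replicate 3, the highest of the 3 (-0.74, adjusted p = 0.0333). Counts of Il1b lay between 3951 and 53108 per library. In GENCODE M21 its exons share 25 of 1907 bases with Il1bos on the opposite strand, and the strand setting of the counting is not given in the sources used here.

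Il1a, the gene of the second interleukin-1 ligand, stood between 16.95 and 82.7 CPM up to P10 and was highest at P21. Its libraries held 42.1, 41.1 and 38.2 CPM at E14.5 and 21.2, 16.95 and 46.2 at P3. At P10 they held 46.8, 82.7 and 64.8, and at P21 199.9, 251 and 180. The P21 libraries lay above all 9 younger ones. At P56 the values spread widely, with 21.01 in replicate 1 against 99.6 and 119 in the others.

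The rise of Il1a from E14.5 to P21 was 5.19-fold, with a log2 change of 2.38 ± 0.509 (adjusted p = 0.00692), and it was called in all 16 alternatives. No single step was called. The largest step, from P10 to P21, had a log2 change of 1.70 ± 0.497 (adjusted p = 0.128), and it was called by DESeq2 (0.00979), limma voom (0.0378), the fits of only the ages compared (0.0405) and of only the 12 libraries of 1 project (0.0246), and with the replicate number as a block (0.0405). Il1a exons share 222 of 1974 bases with Gm14023 on the opposite strand.

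Il1rn, which encodes the interleukin-1 receptor antagonist, was low and variable at each age up to P21 and was called in no comparison. Its libraries held 23.4, 14.1 and 8.8 CPM at E14.5, 12.3, 14.2 and 23.2 at P3, 33.5, 11 and 14.04 at P10, and 31.1, 10.6 and 42.0 at P21. These groups overlap. At P56 the values were 44.1, 40.2 and 51.0, with a mean of 45.1 ± 5.50. From E14.5 to P21 the log2 change was 0.86 ± 0.522 (adjusted p = 0.326).

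The balance of agonist and antagonist RNA was therefore followed within each library as the ratio of the counts of Il1b to those of Il1rn, which no scaling factor affects. It was 7.33, 14.1 and 22.2 at E14.5, 35.9, 31.7 and 20.2 at P3, 25.6, 94.1 and 67.0 at P10, and 83.4, 215.7 and 52.2 at P21. The mean log2 ratio went from 3.72 ± 0.802 to 6.61 ± 1.04, a difference of 2.89, and the 4 ages differed by an exact permutation test of the F statistic (p = 0.0121, adjusted over 2 ratios 0.0121, n = 3 per age). Without E14.5 replicate 1 the difference was 2.47 and the exact permutation p adjusted over both ratios was 0.0503, so that the call rests on that library. At P56 the ratios were 34.6, 32.0 and 40.2. The ratio compares 2 genes of different length and is not a ratio of molecules.

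**Figure D2:**
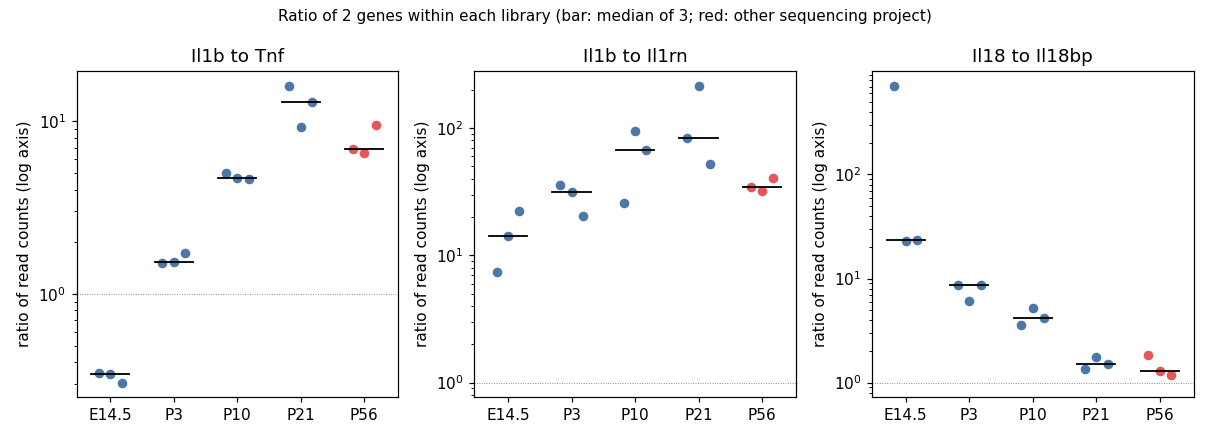
Ratio of the counts of 2 genes within each library (vertical axis, log scale, no unit) by age (horizontal axis), for Il1b to Tnf, Il1b to Il1rn and Il18 to Il18bp; points are libraries and bars are medians over 3 libraries. Il1b to Tnf runs from 0.306 to 0.349 at E14.5 up to 9.27 to 16.1 at P21, while Il18 to Il18bp falls to 1.34 to 1.77 at P21.

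Of 21 listed receptors, other ligands and signalling genes of the interleukin-1 family, 19 were tested. Between E14.5 and P21, 2 rose and 1 fell, where 12.2% of all tested genes were called, so this share is near the background (median log2 change -0.237, beside -0.009 over all genes), and 1 rose between E14.5 and P3. None was called from P3 to P10, from P10 to P21 or from P21 to P56. Irak4, a kinase directly downstream of the receptor, rose from 39.8 ± 2.02 to 70.4 ± 10.6 CPM between E14.5 and P21 (log2 change 0.82 ± 0.206, adjusted p = 0.017). That call was lost with library totals as the scale and without E14.5 replicate 1, E14.5 replicate 2 or P21 replicate 3 (highest adjusted p = 0.126). Il1rap, the accessory chain of the receptor, fell from 21.3 ± 3.46 to 4.62 ± 3.10 CPM (-2.20 ± 0.631, adjusted p = 0.0348), a call that was lost without any 1 of 5 libraries (E14.5 replicates 1, 2 and 3, P21 replicates 1 and 2; highest adjusted p = 0.101). The receptor genes themselves, named here after their values were seen, had few reads: 0 to 115 counts per library for Il1r1, the signalling receptor, and 0 to 48 for Il1r2, the decoy receptor.

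Nlrp3, the gene of the inflammasome sensor, was lowest at P10 and rose from there to P21. Its libraries held 36.9, 79.3 and 74.0 CPM at E14.5, 55.3, 32.4 and 45.7 at P3, and 27.7, 30.8 and 51.5 at P10. At P21 they held 82.9, 175 and 167, and at P56 91.2, 174 and 158. All P21 libraries lay above all P10 libraries, and replicate 1 of P21 was close to the higher E14.5 libraries. The P21 and P56 means, 142 ± 50.9 and 141 ± 44.1, differed by less than the spread between libraries.

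From P10 to P21 Nlrp3 rose by 1.95 ± 0.383 on the log2 scale (adjusted p = 0.0309). This call was lost with only the ages compared in the fit (adjusted p = 0.0786) and without P10 replicate 1 (0.155), P10 replicate 2 (0.137), P21 replicate 2 (0.0868) or P21 replicate 3 (0.0621), with log2 changes of 1.77 to 2.27 over all alternatives. Against E14.5 the P21 level was not called (1.16 ± 0.374, adjusted p = 0.0601). It was called without P21 replicate 1 (1.43, adjusted p = 0.0305), with upper quartile scaling (0.0395), with the filter of 5 CPM (0.0321), by DESeq2 (0.0113) and by limma voom (0.0421). In the test of any difference over 4 ages Nlrp3 was called (adjusted p = 0.0121).

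Casp1, the gene of the protease that cuts both interleukin precursors, covered a narrow range. Its libraries ranged from 92.1 to 138 CPM at E14.5, 104 to 117 at P3, 113 to 137 at P10, 144 to 198 at P21 and 161 to 197 at P56. The P21 libraries lay just above those of E14.5. The log2 change from E14.5 to P21 was 0.58 ± 0.173 (adjusted p = 0.0433). The call was lost in 8 of 16 alternatives, among them library totals as the scale (0.27, adjusted p = 0.33), the replicate block (adjusted p = 0.0556) and the fits without E14.5 replicate 2 (0.161), E14.5 replicate 3 (0.171), P21 replicate 1 (0.0544) or P21 replicate 2 (0.171). With library totals the median of all genes itself shifted by -0.311 between these ages, and the lower value of Casp1 is relative to that.

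Of 24 further genes of inflammasome sensors, adaptors, effectors and regulators, 23 were tested, and 5 rose and 0 fell between E14.5 and P21 (median log2 change 0.394), where 7.81% of all tested genes rose. Ninj1, whose product ruptures the membrane of dying cells, rose from 236 ± 12.6 to 938 ± 133 CPM (1.99 ± 0.144, adjusted p = 7.28e-07). P2rx4, an ATP-gated channel gene, rose from 185.5 ± 16.7 to 440 ± 97.8 CPM (adjusted p = 6.84e-05). Gsdmd, the gene of the pore protein that caspase-1 cuts, went from 67.7 ± 3.85 to 123 ± 39.5 CPM (0.86 ± 0.194, adjusted p = 0.00959), which was not called with library totals and with only the ages compared (highest adjusted p = 0.0691). Txnip, a thioredoxin-binding regulator linked to NLRP3, rose from 308 ± 13.3 at E14.5 to 632 ± 82.8 CPM at P3 (1.04 ± 0.164, adjusted p = 0.00454), the other 2 called at that step being Ninj1 and P2rx4. Txnip was also the 1 list gene called from P21 to P56 (0.98, adjusted p = 0.0239), to 1024 ± 121 CPM, but not without P21 replicate 1, P21 replicate 2, P56 replicate 1 or P56 replicate 2 (highest adjusted p over all alternatives 0.301). From P10 to P21, 1 gene was called, Ninj1, and none was called from P3 to P10.

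Il18, the second ligand whose precursor caspase-1 cuts, was highest at P3. Its libraries held 93.0, 89.0 and 75.3 CPM at E14.5 and 177, 183 and 203 at P3, with no overlap. At P10 they held 112, 176 and 146, at P21 99.5, 70.5 and 68.6, and at P56 105, 67.2 and 64.1. The P21 and P56 values overlap those of E14.5, and the P21 level differed from E14.5 by -0.11 on the log2 scale (adjusted p = 0.815).

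The rise of Il18 from E14.5 to P3 was 1.13 ± 0.221 on the log2 scale (adjusted p = 0.0159). It had the same direction in every alternative, but leaving out any of 4 libraries ended the call: E14.5 replicate 2 (adjusted p = 0.0666), E14.5 replicate 3 (0.0753), P3 replicate 2 (0.0514) and P3 replicate 3 (0.0657). Against E14.5, P10 was also called (0.75 ± 0.22, adjusted p = 0.0476), in 9 of 16 alternatives, and not without E14.5 replicate 1, 2 or 3 or P10 replicate 2 or 3 (highest adjusted p = 0.204). The later step from P10 to P21 had a log2 change of -0.86 ± 0.22 and was not called (adjusted p = 0.0835). It was called with library totals, without a filter, by DESeq2 and in the fit of the 12 libraries of 1 project, the lowest adjusted p being 0.0115.

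Il18bp, which encodes the secreted protein that binds and blocks interleukin-18, had a higher mean at each older age. It stood at 2.43 ± 2.02 CPM at E14.5 (3 to 107 counts per library), 24.7 ± 5.08 at P3, 33.5 ± 1.71 at P10, and 53.2 ± 18.3 at P21, and the P56 libraries averaged 54.4 ± 2.94 CPM. The rise from E14.5 to P21 was 4.44 ± 0.691 on the log2 scale (adjusted p = 0.000713) and was called in all 16 alternatives. The rise to P3 (3.33 ± 0.659, adjusted p = 0.0166) was lost without E14.5 replicate 3 or P3 replicate 2, with only the ages compared and with the replicate block (highest adjusted p = 0.0677).

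Within libraries, the count ratio of Il18 to Il18bp was 714.3, 22.7 and 23.3 at E14.5, 8.69, 6.04 and 8.65 at P3, 3.55, 5.16 and 4.198 at P10, and 1.34, 1.77 and 1.502 at P21. The value of 714.3 rests on 3 counts of Il18bp in E14.5 replicate 1. The libraries of the 4 ages did not overlap, and the mean log2 ratio went from 6.1 ± 2.74 to 0.612 ± 0.201, a difference of -5.48. The exact permutation test of the F statistic over the 4 ages gave p = 6.49e-05, the smallest value its assignments can give, and 0.00013 adjusted over both ratios (n = 3 per age). Without single libraries the difference ranged from -6.28 to -3.9. At P56 the ratios were 1.82, 1.30 and 1.19. Il18rap, the accessory chain of the interleukin-18 receptor, had 223 to 416 counts per library at E14.5 and 0 to 1 at P10 (adjusted p = 0.0381), a call lost on leaving out any 1 of these 6 libraries (highest adjusted p = 0.135).

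**Figure D3:**
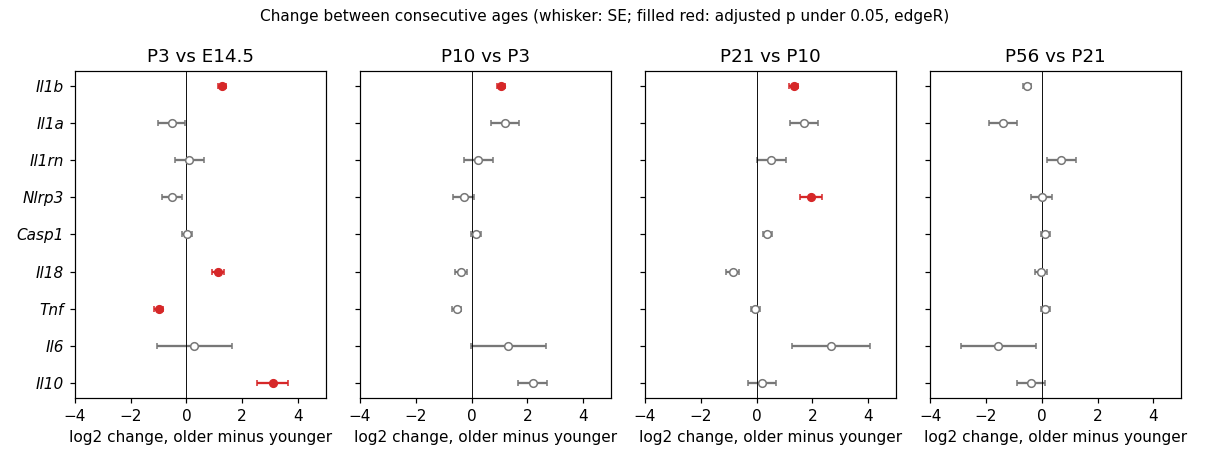
Log2 change in level (horizontal axis, older minus younger age, with SE bars derived from the F statistic of the edgeR fit) of the 9 genes (vertical axis) for P3 against E14.5, P10 against P3, P21 against P10 and P56 against P21. Filled red points were called at an adjusted p under 0.05. The filled points are Il1b, Il18, Tnf and Il10 at the first step, Il1b at the second and Il1b and Nlrp3 at the third.

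Tnf was the 1 gene of the 9 called lower in any pairwise comparison of edgeR's fit of all 15 libraries. Its libraries held 491, 577 and 638 CPM at E14.5, 293, 294 and 271 at P3, 172, 221 and 205 at P10, 162, 248 and 171 at P21, and 220, 198 and 216 at P56. All E14.5 libraries lay above all P3 libraries, and all P3 libraries above those of P10, P21 and P56, while the values from P10 on overlap. From E14.5 to P3 Tnf fell (log2 change -0.99 ± 0.162, adjusted p = 0.00549), and at P21 it was 2.94-fold lower than at E14.5 (log2 change -1.56 ± 0.165, adjusted p = 3.02e-05). Both calls, and that of P10 against E14.5 (-1.51 ± 0.164, adjusted p = 7.19e-05), held in all 16 alternatives. The step from P3 to P10 was not called (-0.52 ± 0.161, adjusted p = 0.253).

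The ratio of the counts of Il1b to those of Tnf was chosen after the values were seen and carries no test. It was 0.349, 0.344 and 0.306 at E14.5, 1.51, 1.53 and 1.73 at P3, 4.99, 4.69 and 4.59 at P10, and 16.1, 9.27 and 12.9 at P21. At P56 it was 6.94, 6.50 and 9.48.

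Of 19 genes of TNF receptors, processing and signalling, all were tested, and 3 rose and 1 fell between E14.5 and P21 (median log2 change 0.515), where 12.2% of all tested genes were called. Birc3, a ubiquitin ligase gene of the TNF receptor complex, went from 77.4 ± 12.3 at P10 to 231 ± 36.9 CPM at P21 (1.58 ± 0.323, adjusted p = 0.0326), a call lost without any 1 of those 6 libraries and with library totals (highest adjusted p = 0.17), while its rise from E14.5 to P21 was called in all 16 alternatives (1.85 ± 0.325, adjusted p = 0.00184). Cflar, an inhibitor of caspase-8, rose by 0.88 ± 0.169 (adjusted p = 0.00329). Litaf (0.68 ± 0.197, adjusted p = 0.037) was not called with library totals or without E14.5 replicate 2 or 3 or any 1 of the P21 libraries (highest adjusted p = 0.189). Adam17, the protease that releases TNF from the cell surface, fell from 249 ± 20.9 to 147 ± 22.5 CPM (-0.76 ± 0.187, adjusted p = 0.0158), but not without E14.5 replicate 1 or P21 replicate 2 (highest adjusted p = 0.0707). Of these 19 genes, none was called from E14.5 to P3, from P3 to P10 or from P21 to P56.

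Il6, the interleukin-6 gene, was near the limit of counting at the younger ages. Its libraries held 1, 66 and 126 counts at E14.5, 27, 21 and 155 at P3, and 181, 289 and 46 at P10. At P21 they held 806, 875 and 973 counts, or 39.4, 45.6 and 46.9 CPM, above every other library. At P56 replicate 1 held 1 count and the others 458 and 354. From E14.5 to P21 the log2 change of 4.26 ± 1.5 was not called (adjusted p = 0.0835), although Il6 was called in the test of any difference over 4 ages (adjusted p = 0.042). DESeq2, limma voom, the fit of 12 libraries and the replicate block called the change, with a lowest adjusted p of 0.0177. Without E14.5 replicate 1, the library with a single count, the log2 change was 3.68 (adjusted p = 0.185).

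Il10, the gene of the restraining cytokine interleukin-10, had the largest relative rise of the 9. Its libraries held 27, 148 and 58 counts at E14.5, or 1.17, 5.42 and 2.02 CPM. They held 15.6, 38.4 and 20.04 CPM at P3, 62.0, 169 and 106 at P10, 152, 107 and 128 at P21, and 65.3, 84.2 and 149 at P56. The E14.5, P3 and P10 libraries did not overlap, and the P10, P21 and P56 libraries did.

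From E14.5 to P3 Il10 rose by 3.09 ± 0.557 on the log2 scale (adjusted p = 0.0105), a call lost with limma voom (adjusted p = 0.205) and without E14.5 replicate 3 (0.0536). From P3 to P10 the change of 2.19 ± 0.523 was not called (adjusted p = 0.113), but it was by DESeq2 and limma voom, with a lowest adjusted p of 0.00117. From E14.5 to P21 Il10 rose 44.6-fold (5.48 ± 0.613, adjusted p = 4.95e-05), and from E14.5 to P10 by 5.28 ± 0.608 (adjusted p = 0.000121). Both of these calls held in all 16 alternatives. Their size depends on E14.5 replicate 2, the highest of its age: without it the log2 changes were 6.32 for P21 and 6.12 for P10, and 3.93 for P3.

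Of 15 genes of the receptors and signalling of interleukin-6 and interleukin-10, all tested, 7 rose and 0 fell between E14.5 and P21 (median log2 change 0.558), where 7.81% of all tested genes rose. They were Stat3, Socs3, Il10ra, Il10rb, Nfil3, Bcl3 and Etv3. Socs3, a STAT3 target that limits cytokine signalling, rose from 87.8 ± 7.99 to 782 ± 199 CPM (3.15 ± 0.259, adjusted p = 2.71e-06). Nfil3, a transcription factor gene, rose from 22.0 ± 2.61 to 228.5 ± 61.5 CPM (adjusted p = 0.000385), and Bcl3, a nuclear member of the IkB family, from 27.5 ± 4.58 to 144 ± 28.6 CPM (adjusted p = 0.00031). Il10rb, the shared chain of the interleukin-10 receptor, rose from 233 ± 17.7 at E14.5 to 472 ± 35.1 CPM at P21 (1.02 ± 0.109, adjusted p = 2.99e-05). These 4 calls from E14.5 to P21 held in all 16 alternatives. From E14.5 to P3 the called genes were Socs3 and Il10rb, the first lost without E14.5 replicate 1, 2 or 3 or P3 replicate 1 or 2 (highest adjusted p = 0.0892) and the second without E14.5 replicate 2 (0.056). From P10 to P21 it was Socs3, lost without P10 replicate 1, 2 or 3 or P21 replicate 1 (highest adjusted p = 0.107).

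Of 13 NF-kB subunits and inhibitors, all tested, 3 rose and 0 fell from E14.5 to P21 (median log2 change 0.384), where 7.81% of all tested genes rose and 4.37% fell, and the 3 encode inhibitors of the IkB family. Nfkbid rose from 299.5 ± 66.6 to 677 ± 43.2 CPM at P3 (1.18 ± 0.17, adjusted p = 0.00257) and stood at 749 ± 64.9 at P21 (1.32 ± 0.171, adjusted p = 0.000162). Nfkbie rose by 1.45 ± 0.315 (adjusted p = 0.00754). Nfkbib (0.76 ± 0.223, adjusted p = 0.0402) was not called with library totals, with only the ages compared, or without E14.5 replicate 1, 2 or 3 or P21 replicate 1 or 3 (highest adjusted p = 0.178).

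Cytokine transcripts are also controlled by proteins that act on them and affect their decay. Of 12 such genes, all tested, 1 rose and 1 fell from E14.5 to P21 (median log2 change -0.0308), a share near the 12.2% of all tested genes called, so the values below are those of single genes. Zfp36l1, a decay factor, rose from 115 ± 24.8 to 386 ± 47.2 CPM (1.75 ± 0.182, adjusted p = 2.65e-05), and Hnrnpd, which encodes AUF1, fell from 229 ± 38.8 to 105 ± 15.8 CPM (-1.13 ± 0.163, adjusted p = 0.000415). Zfp36, which encodes tristetraprolin, rose from 1437 ± 276 at P3 to 3094 ± 497 CPM at P10 (1.11 ± 0.2, adjusted p = 0.0292), a call lost with the replicate block and without P3 replicate 1, 2 or 3 or P10 replicate 2 or 3 (highest adjusted p = 0.157). Elavl1, a stabilizing factor gene, fell from E14.5 to P10 (-0.44, adjusted p = 0.0384), a call kept in 7 of 16 alternatives (highest adjusted p = 0.239) and not without E14.5 replicate 2 or 3 or any 1 of the P10 libraries.

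Immediate early and heat shock genes, which respond quickly to handling and to stimulation, also moved between ages. Of 21 such genes, all tested, 12 rose and 1 fell from E14.5 to P21 (median log2 change 1.29), where 12.2% of all tested genes were called. From E14.5 to P3, 2 rose and 5 fell, where 1.67% of all tested genes rose and 0.388% fell. From P3 to P10, 6 rose, beside 0.341% of all, and from P10 to P21, 7 rose, beside 0.96%. As CPM of the total, they summed to 18743 to 20285 at E14.5, 11952 to 13818 at P3, 20301 to 24655 at P10, 24992 to 27052 at P21 and 22112 to 29261 at P56. Egr1, a transcription factor gene, was among the 5 that fell to P3, with a mean of 5054 ± 219 CPM before and 1249 ± 169 after, at the step where Il1b rose and Tnf fell. The means of Nr4a1, a nuclear receptor gene, were 280 ± 88.6 (E14.5), 720 ± 90.5 (P3), 1058 ± 235 (P10) and 1883 ± 396 CPM (P21), in the same order as those of Il1b. Those of Klf2 had that order as well (59.1, 86.8, 128 and 455 CPM). The rest of the genes named by the same rule did not. Like Egr1, Btg2 (898 to 597 CPM), Dusp1 (1612 to 964) and Klf6 (776 to 742) had lower means at P3 than at E14.5. The part of these genes in the cytokine levels was not tested.

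Markers of other cell types were at low or uneven levels. Of 12 neutrophil markers 6 were tested, their sum (also as CPM of the total) was 33.6 to 36.0 at E14.5, 22.8 to 236 at P3, 14.2 to 37.9 at P10, 35.2 to 40.5 at P21 and 43.9 to 62.3 at P56, and Ly6g was at 0 in 14 of 15 libraries. At E14.5, P21 and P56 most of that sum was Csf3r, with means of 33.1, 36.9 and 51.9 CPM of the total. S100a8 averaged 0.124, 0.031 and 0 at those ages and 33.1 ± 46.0 at P3, so the sum at those 3 ages is mainly the level of 1 gene. Of 10 monocyte markers 9 were tested, with sums of 20.3 to 50.5 at E14.5, 58.5 to 84.2 at P3, 34.3 to 77.5 at P10, 86.1 to 142 at P21 and 55.6 to 461 at P56, the highest being P56 replicate 1, which had 1 count of Il6 and the lowest Il1a of the P56 libraries. The 10 mast cell markers summed to 2.15 to 129 at E14.5, 645 to 1776 at P3, 176 to 436 at P10, 4.05 to 11.5 at P21 and 10.2 to 296 at P56, so that they were highest at P3, as was Il18. The 12 fibroblast markers summed to 68.9 to 727 at E14.5, 569 to 2600 at P3, 768 to 2910 at P10, 1187 to 2068 at P21 and 150 to 242 at P56. Of 11 dendritic cell markers 9 were tested, and their sums were 66.8 to 80.8 (E14.5), 55.7 to 60.2 (P3), 81.5 to 121 (P10), 172 to 300 (P21) and 216 to 391 (P56). At P21 Siglech, also a microglia marker, and Cd209a averaged 146 ± 20.4 and 50.2 ± 54.2 CPM, Xcr1 was at 0 in all 3 libraries, and Clec9a was at 0 in 14 of 15 libraries. Of 12 T and NK cell markers 4 were tested. Cd3e of T cells was at 0 in 13 of 15 libraries, while Cd4, which some macrophages also express, was present in all 15 and averaged 32.6 ± 7.44 CPM (E14.5), 147 ± 14.4 (P3), 175 ± 38.4 (P10), 270 ± 51.5 (P21) and 208 ± 94.2 (P56), with its highest mean at P21 like Il1b. The part of these cell types in the levels of the 9 genes was not tested.

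**Figure D4:**
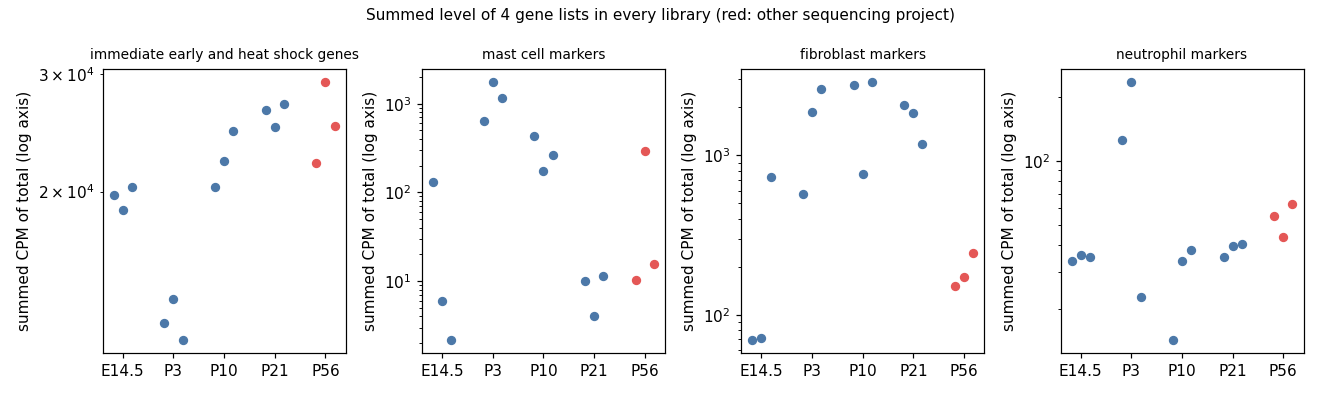
Summed level of 4 gene lists in each library, in CPM of the total count (vertical axis, log scale), by age (horizontal axis): immediate early and heat shock genes, mast cell markers, fibroblast markers and neutrophil markers; points are libraries. The immediate early sum is lowest at P3, at 11952 to 13818, where the mast cell sum is highest, at 645 to 1776. At E14.5, P21 and P56 the neutrophil sum is mostly Csf3r.

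The genes whose profile over the 15 libraries was most like that of Il1b were Clec10a (Pearson r of log2 CPM 0.98), Cd14 (0.978), Tmem176b (0.976), Rab20 (0.975) and Ly6e (0.968), among 6421 genes with a mean of at least 20 CPM. Cd14, a co-receptor gene for bacterial lipopolysaccharide, averaged 203 ± 28.8 (E14.5), 749 ± 150 (P3), 2006 ± 61.5 (P10) and 5472 ± 1347 CPM (P21). Clec10a, a lectin receptor gene, averaged 62.6 ± 2.64, 171 ± 22.1, 316 ± 31.9 and 774 ± 117 CPM at the same ages. For Nlrp3 the most alike were Ifi207 (0.91), Fkbp5 (0.908), Ptk2b (0.896), Rassf2 (0.887) and Mtmr6 (0.886). Fkbp5, a gene induced by glucocorticoids, had 38.5 ± 16.1 CPM at E14.5, 11.2 ± 1.67 at P10, 156 ± 73.4 at P21 and 284 ± 295 at P56. These correlations describe libraries that share ages and sequencing project, and carry no test.

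Levels can be compared between genes only per length, here as CPM per kilobase of merged GENCODE M21 exons. On that scale Tnf led at E14.5 with 347, above Il1b (98.8), Il18 (83.2), Casp1 (73.2), Il1a (20.5), Nlrp3 (15.6), Il1rn (2.79), Il10 (2.19) and Il6 (0.940). At P21 Il1b led with 1239 CPM per kilobase, followed by Tnf (118), Casp1 (109), Il1a (107), Il10 (98.4), Il18 (77.2), Nlrp3 (34.9), Il6 (18.1) and Il1rn (5.05). Library ranges overlapped between neighbours in this order at E14.5 for Il1b and Il18, for Il18 and Casp1, for Il1a and Nlrp3, for Il1rn and Il10 and for Il10 and Il6, and at P21 for Tnf and Casp1, for Casp1 and Il1a, for Il1a and Il10 and for Il10 and Il18. Whether the counting used these exons is not given in the sources used here.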

How the data were processed

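Per the submitters' processing notes, the tools used were STAR 2.7.8a, featureCounts 2.0.2 and bcl2fastq 2.18. The genome build, annotation, strand and multi-mapping rules are not given in the sources used here. The authors deposited unnormalized read counts for each gene symbol. Per the labels' protocols, sorted cells went into RNAprotect, RNA was extracted with PicoPure, and libraries were made with SMARTer v4 and Nextera XT. No molecular identifiers are named, so reads are not independent molecules.

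Ages came from the labels, 3 libraries each, and no count column was left out. Of 53546 symbols, 50067 (93.5%) matched GENCODE M21. The counts entered edgeR 4.0.16 (R 4.3.3): TMM scaling, filterByExpr by age, age as the only term, robust quasi-likelihood F-tests, Benjamini-Hochberg adjustment over all 14683 genes, alpha 0.05. The TMM factors of the E14.5 libraries were 1.123 to 1.158 and those of the P56 libraries 0.8071 to 0.8565. CPM of the total uses no such factor. The test of any difference used the 12 libraries of 1 sequencing project. Count ratios (0.5 added for log2) were compared by an exact permutation test of the F statistic over 369600 assignments of libraries to ages. The fit was tested on simulated data.

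The 9 genes and the gene lists were chosen with earlier results of these data known. Named genes were the 9, Mrc1, up to 4 called genes with the smallest adjusted p of each pathway list, up to 6 of the immediate early list, and the 5 most alike to Il1b and to Nlrp3. Alternatives were RLE, upper quartile and library-total scaling, no filter, a filter of 5 CPM in 3 libraries, DESeq2 1.42.0, limma 3.58.1 voom, a log2 change of at least 1, fits of fewer libraries, a replicate block and leaving out each library. Counts of alternatives that kept a call leave out the rule on size.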

Additional observations from a re-analysis of the deposited data

How the results depend on the processing

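The number of the 9 genes called from E14.5 to P3 was 4 and ranged from 2 to 4 when single libraries were left out, with 2 without E14.5 replicate 3. From P3 to P10 it was 1, and 2 with DESeq2 and with limma voom (Il10 added). From P10 to P21 it was 2, 4 with DESeq2 and 4 in the fit of the 12 libraries of 1 project, and 1 to 2 without single libraries. From P21 to P56 it was 0, 1 with library totals and 1 with DESeq2 (Il1b), and 0 to 1 without single libraries. Requiring a log2 change of at least 1 dropped Tnf at P3 (-0.993) and Casp1 at P21 and Il18 at P10, each against E14.5. The Il1b to Il1rn difference of 2.89 ranged from 2.33 to 3.35 without single libraries, and its call ended without E14.5 replicate 1 (2.47). Directions turned for differences that were not called. With library totals these were Casp1 at P3 against E14.5 (-0.0104), and Casp1 (-0.0101) and Tnf (-0.011) at P56 against P21, and with limma voom Nlrp3 at P56 against P21 (0.0268). Without single libraries Il1rn ranged from -0.216 to 0.527 (P3 against E14.5), -0.403 to 0.558 (P10 against P3) and -0.3 to 0.766 (P10 against E14.5), Casp1 from -0.0771 to 0.227 and Il6 from -1.28 to 1.16 (P3 against E14.5), Tnf from -0.26 to 0.0707 and Il10 from -0.0943 to 0.618 (P21 against P10), and Nlrp3 from -0.275 to 0.229 and Il18 from -0.284 to 0.175 (P56 against P21). The cause was not tested. Over all genes, calls without single libraries numbered 127 to 198 from E14.5 to P3 (302 with all), 21 to 41 from P3 to P10 (59), 30 to 171 from P10 to P21 (168), 37 to 100 from P21 to P56 (40) and 1108 to 1933 from E14.5 to P21 (1789). DESeq2 called the most: 825 from E14.5 to P3, 334 from P3 to P10, 748 from P10 to P21 and 524 from P21 to P56. Its higher counts among the 9 genes thus came with more calls over all genes. For the 12-library fit from P10 to P21 the count over all genes is not given here. Library totals shifted the median log2 change of all genes by -0.311 from E14.5 to P21. Replicate numbers did not pair the libraries: same-numbered libraries of different ages had a mean r of their deviations of 0.011 (-0.0553 to 0.0618). With the replicate number as a block the any-difference test called 7 of the 9 genes and 1585 genes in all, and the pairwise counts for the 9 were 4, 1, 3, 5 and 4 for P3 against E14.5, P10 against P3, P21 against P10, P21 against E14.5 and P10 against E14.5.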
